A study of Mus musculus with 14 samples.

Results

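MHC class I presentation was followed through 9 genes: the heavy chains H2-K1 and H2-D1, the light chain B2m, the peptide transporter subunits Tap1 and Tap2, the loading factor Tapbp, the immunoproteasome subunits Psmb8 and Psmb9, and the transactivator Nlrc5. The list was drawn up by gene function, with earlier results of these data known, and no measured value enters its rule. Its symbols were matched exactly, and all 9 are present, of 26528 gene symbols in the brain matrix and 28316 in the retina matrix.

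Class I molecules show peptides from inside a cell to CD8 T cells and to receptors of natural killer cells. Proteasomes cut proteins in the cytosol, TAP carries the peptides into the endoplasmic reticulum, and tapasin (Tapbp) bridges TAP to a heavy chain paired with beta-2 microglobulin until a peptide binds. Interferons induce most of these genes, NLRC5 drives them from the SXY motifs of their promoters, and in the healthy central nervous system class I is known to be high on endothelium and low on most neurons.

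The study asks what early loss of endothelial TGF-beta signaling does to the vessels of the retina and brain, and both tissues were profiled by single-nucleus RNA sequencing from the 3' end of transcripts. CKO mice carry VEcadCreER (Cdh5CreER) with Tgfbr1 CKO/- and received 4HT between P3 and P5; the Cdh5 promoter drives the Cre in endothelial cells (ECs). Control animals are called wild type in the labels, and the study calls its controls phenotypically wild type, for retinas scored by histology typically Cdh5CreER with Tgfbr1 CKO/+ or Tgfbr2 CKO/+; the genotype of the sequenced controls is not given further. Whether they received 4HT is not given, nor are the strain or its H2 haplotype. Ages are given as young adult in the labels and as P14 in the study. Each brain library, 1 control and 1 CKO, pools vascular fragments of 2 brains; the retina has 1 control and 11 CKO libraries, with the number of mice in each not given.

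The brain control holds 16649 nuclei with 49798325 unique molecular identifiers (UMIs, the counted molecules), and the brain CKO library 14675 nuclei with 31033373. The retina control holds 11513 nuclei with 30989702 UMIs. Among the CKO retinas, totals run from 90449 UMIs in replicate 4 to 55803724 in replicate 5. Nuclei of different libraries share 2 of 31324 barcodes in the brain and 10 of 77676 in the retina. Values are CPM, in which the UMIs of a gene, summed over the nuclei of a cell type in a library, are scaled by all UMIs of those nuclei.

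Tgfbr1 itself was read before the class I genes. In brain ECs it has 401 UMIs in the control, 69.1 CPM, and 431 in the CKO library, 62.9 CPM, a ratio of 0.910 with an interval from 0.793 to 1.04. In the retina it is at 89.0 CPM in the control against 71.4 to 87.0 in the CKO libraries, apart from replicate 4 at 365 CPM from 33 UMIs. The counts come from 3' ends and no retinal label names ECs, so these levels do not test the deletion.

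Certain libraries stand apart. CKO retina replicate 4 has 104 nuclei, of which 62.5% carry the immune label, against 0.50% to 1.21% in the other CKO libraries and 0.252% in the control. CKO replicate 7 has no B2m UMI among 14624822, where 3 counts would be 0.205 CPM. Xist is at 1963 CPM in the brain control and 1.29 in the brain CKO library, so sex and genotype cannot be told apart there. In the retina Xist is at 6779 CPM in the control, at 5577 to 6823 in CKO replicates 1, 2, 4 and 7, and at 0.365 to 12.9 in the other CKO libraries. The control shares its batch label with CKO replicates 1, 2 and 3 only; replicates 8 to 11 were made with kit v5.0 and all other libraries with v4.0 PLUS.

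The EC label of the brain was read against marker genes. Endothelial markers sum to 13630 CPM in control ECs and 10750 in CKO ECs, 11 of 11 detected with Flt1 the highest. Pericyte markers sum to 7789 and 6667 CPM (8 of 8, Rgs5 the highest), so the nuclei under this label carry pericyte transcripts in both libraries. Of 2475 control and 2944 CKO EC nuclei, 364 and 137 have no pericyte marker UMI. Pan-immune markers are at 112 and 115 CPM (8 of 8, Inpp5d the highest). Cycling markers are at 266 CPM in the control against 559 in the CKO ECs (8 of 8, Top2a the highest). Macrophage markers are at 129 CPM in control ECs and 70.5 in CKO ECs (7 of 7, Mrc1 the highest), and B cell markers at 0.862 and 9.49 CPM (2 and 5 of 5). The part of the pericyte, macrophage and B cell markers in the EC values was not tested. Ratios in EC nuclei without pericyte marker UMIs are given in the last section.

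In brain ECs, ratios are CKO over control with exact 95% intervals that cover counting error only. With 1 library per genotype there is no test and no spread between mice. A gene with at least 50 UMIs over both libraries is called higher or lower at a ratio past 1.5-fold. Of the 8 members with that many UMIs, 4 are called higher, H2-K1, Tap1, Psmb8 and Psmb9, against 21.4% of the 11351 genes counted, and 0 are called lower, against 9.32%. The members' median log2 ratio is 0.57 and that of all genes 0.14. All 8 ratios are above 1 with totals as the scale. With TMM factors 17.5% of genes are higher and 12.2% lower, the median of all genes moves by 0.10 to 0.04 on the log2 scale and that of the members to 0.47, and 7 of the 8 are above 1, with H2-D1 at 0.935.

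**Figure D1:**
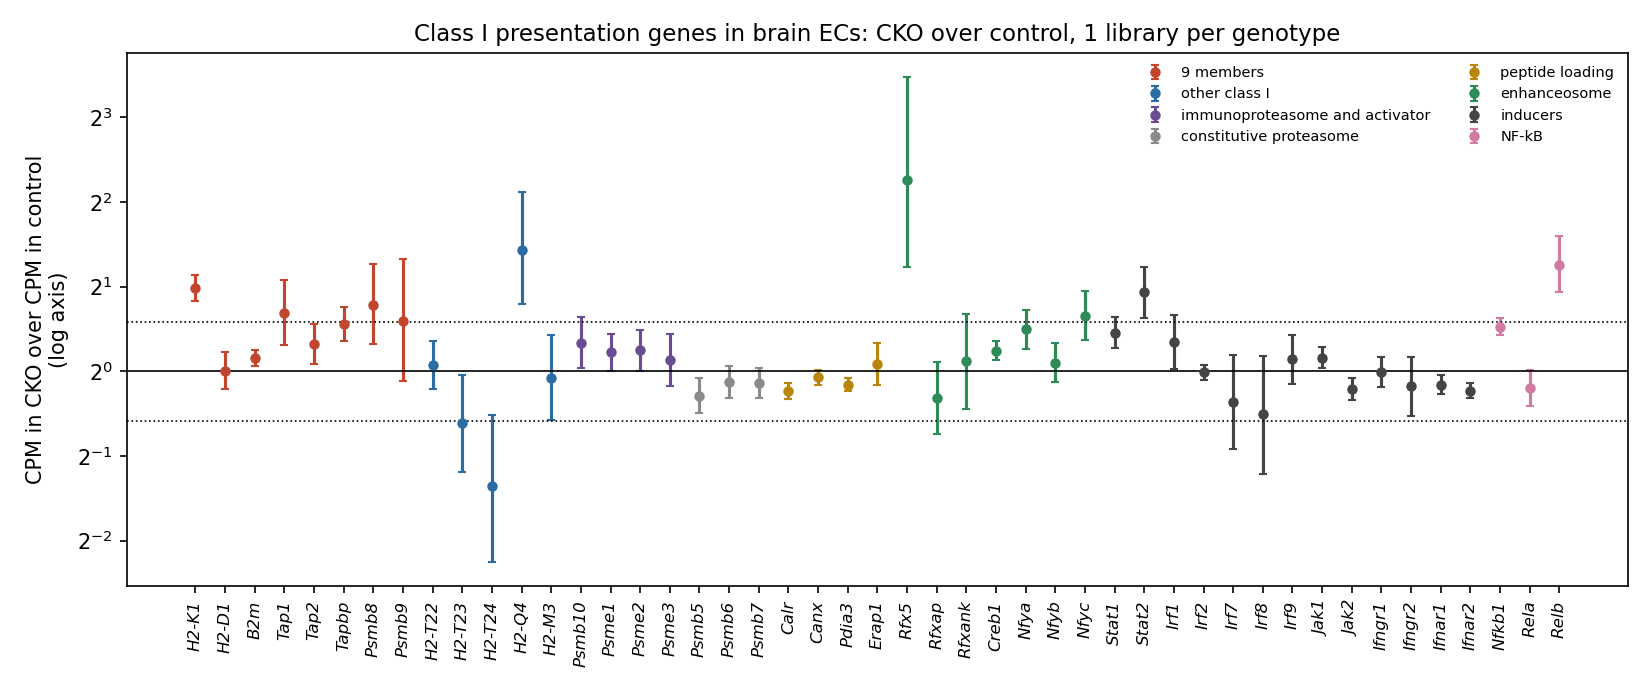
Ratio of CPM in CKO over control in brain ECs, for the members and the other pathway genes with at least 50 UMIs. Bars are 95% intervals of counting error.

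H2-K1 encodes a classical heavy chain, the subunit that holds the peptide. It has 497 UMIs in control ECs, 85.7 CPM (interval 78.3 to 93.5), and 1156 in CKO ECs, 169 CPM (159 to 179). The intervals do not overlap, and the ratio is 1.97 (1.77 to 2.19). In EC nuclei without a cycling marker UMI the levels are 88.2 and 160 CPM, a ratio of 1.81 (1.59 to 2.07). With nuclei thinned to 1000 UMIs each, which leaves out 1005 control and 1055 CKO ECs with fewer, an H2-K1 UMI is found in 9.18% of the 1470 control and 14.2% of the 1889 CKO ECs kept (unthinned 15.5% of 2475 and 26.9% of 2944, at medians of 1347 and 1491 UMIs). The Glut_0 neurons, thinned alike, show none in 1844 control and 2379 CKO nuclei, at medians of 5004 and 2314 UMIs. Because the authors' processing took out background, these neurons do not gauge free RNA. Its part in the EC values was not tested.

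H2-D1, the other classical heavy chain, has 327 UMIs in control ECs against 388 in CKO ECs. Its levels are 56.4 CPM (50.4 to 62.8) and 56.6 CPM (51.1 to 62.6), a ratio of 1.00 (0.865 to 1.17). The levels overlap almost fully. Because class I heavy chain genes are close to identical over long stretches, the split of UMIs between H2-K1, H2-D1 and their relatives is uncertain. B2m, the light chain shared by all class I heavy chains, has 1676 UMIs in control ECs, 289 CPM (275 to 303), and 2207 in CKO ECs, 322 CPM (309 to 336). Those intervals lie apart, at a ratio of 1.11 (1.05 to 1.19) with totals as the scale and of 1.04 (0.973 to 1.11) with TMM factors.

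Tap1 and Tap2 form the transporter that moves peptides into the endoplasmic reticulum. Tap1 has 88 UMIs in control ECs and 168 in CKO ECs, 15.2 CPM (12.2 to 18.7) and 24.5 CPM (21 to 28.5). These do not overlap; the ratio is 1.62 (1.24 to 2.12), but 1.45 in nuclei with at least 1000 UMIs and 1.47 in nuclei without cycling marker UMIs, both under the 1.5-fold line. Tap2 has 251 and 371 UMIs, 43.3 and 54.1 CPM, at a ratio of 1.25 (1.06 to 1.48). Tapbp tethers empty class I molecules to the transporter. Its 320 UMIs in control ECs give 55.2 CPM, its 557 in CKO ECs 81.3 CPM, and the ratio is 1.47 (1.28 to 1.70), just under the line.

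Psmb8 and Psmb9 replace catalytic subunits of the constitutive proteasome in the immunoproteasome. Psmb8 has 57 UMIs in control ECs against 116 in CKO ECs, 9.82 and 16.9 CPM, a ratio of 1.72 (1.25 to 2.41). For Psmb9 the counts are 27 and 48 UMIs, 4.65 and 7.01 CPM, at 1.51 (0.921 to 2.51). The Psmb9 interval includes 1, and its call ends with TMM factors, at 1.40. Split by cycling marker UMIs, Psmb9 is at 1.95 (1.01 to 3.88) in EC nuclei without them, from 16 and 26 UMIs, and at 0.883 (0.410 to 2.02) in those with them, from 11 and 22 UMIs, a subset chosen after seeing the data. Both subsets hold fewer than 50 UMIs. The Psmb9 and Tap1 genes overlap by 743 bases on opposite strands, and the strand used in counting is not stated.

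Nlrc5 encodes the transactivator that binds class I promoters. It has 2 UMIs in control ECs, 0.345 CPM, and 23 in CKO ECs, 3.36 CPM. The ratio is 9.74 with an interval from 2.41 to 85.2. Under 50 UMIs in all, it stands outside the count of 8.

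The other genes of the pathway were grouped into lists by role. In brain ECs the other class I heavy chains have 5 of 8 genes with enough UMIs, 1 higher and 2 lower, beside 21.4% and 9.32% of all genes, and a median log2 ratio of -0.08, beside 0.14. H2-Q4 is the higher of these, with 27 and 86 UMIs, 4.65 and 12.6 CPM, a ratio of 2.70 (1.73 to 4.32). The lower pair is H2-T23, at 10.7 and 7.01 CPM (0.656, 0.440 to 0.971), and H2-T24, at 6.72 and 2.63 CPM (0.391, 0.210 to 0.700). H2-Q4 thus lies with H2-K1 above 1 and H2-T23 and H2-T24 below it, with the near-identity of these sequences as a limit. Another H2-T gene of the list, not called, is at 1.05 (0.863 to 1.28), from 186 and 231 UMIs. Among other immunoproteasome and activator subunits 0 of 4 are called (4 ratios above 1, median log2 0.23). For the constitutive proteasome subunits it is 0 of 3 (0 above 1, median -0.13), and for other loading factors 0 of the 4 counted (1 above 1, median -0.11).

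Transcription factors upstream of class I were listed as well. The enhanceosome, the complex that NLRC5 joins on SXY motifs, has 2 of 7 genes called higher and 0 lower, beside 21.4% and 9.32% of all EC genes, with a median log2 ratio of 0.24. Rfx5, its DNA-binding RFX subunit, has 9 and 51 UMIs, 1.55 and 7.44 CPM, a ratio of 4.80 (2.34 to 11.1). Nfyc, a subunit of NF-Y, is at 26.7 and 42.0 CPM, a ratio of 1.57 (1.29 to 1.93). In the list of interferon receptors, signal transducers and interferon regulatory factors 1 of 13 is higher, 0 are lower and the median is -0.01. Stat2, which carries the type I interferon signal, is the higher gene, at 23.3 and 44.4 CPM (1.91, 1.55 to 2.35). Of 3 NF-kB genes 1 is higher and 0 are lower, with a median of 0.52: Relb, a subunit of the noncanonical arm, at 17.9 and 42.9 CPM (2.39, 1.91 to 3.02).

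Across the 21 brain labels, class I transcripts lie mostly in vascular nuclei. In the control H2-K1 is highest in vSMCs at 136 CPM, above ECs at 85.7 with intervals apart, while microglia (37.5 from 3 UMIs), glia (30.0) and CP_6 (17.6) follow with overlapping intervals. In the CKO library ECs at 169 and vSMCs at 159 CPM overlap, then come glia at 28, CP_8 at 9.78 and CP_6 at 9.51. H2-D1 is led in the control by ECs at 56.4 and vSMCs at 55.0 CPM, which overlap, before Glut_20 at 28.5. CKO levels of H2-D1 run from vSMCs at 69.7 and ECs at 56.6 CPM to Glut_20 at 22.5. B2m is at 400 CPM in control vSMCs, above ECs at 289, and glia follow at 76.2. In the CKO library B2m in vSMCs at 372 and ECs at 322 CPM overlap, and Glut_20 at 67.4 and glia at 60.1 lie lower. Tap2 and Tapbp do not follow that order. Tap2 is highest in pericytes in both libraries, at 90.3 CPM from 11 UMIs in the control (45.1 to 162) and 109 from 1 UMI in the CKO library. Control microglia (62.6 from 5 UMIs), ECs (43.3) and vSMCs (42.7) follow, each overlapping the next, and in the CKO library ECs at 54.1 and vSMCs at 50.3 overlap the pericytes and each other. Tapbp in the control runs vSMCs 69.8, glia 57.1, ECs 55.2 and CP_6 32.4 CPM, with the first 3 overlapping, and in the CKO library glia at 132 CPM, vSMCs at 105, ECs at 81.3 and CP_6 at 19 CPM, where vSMCs overlap both glia and ECs, and glia and ECs lie apart.

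**Figure D2:**
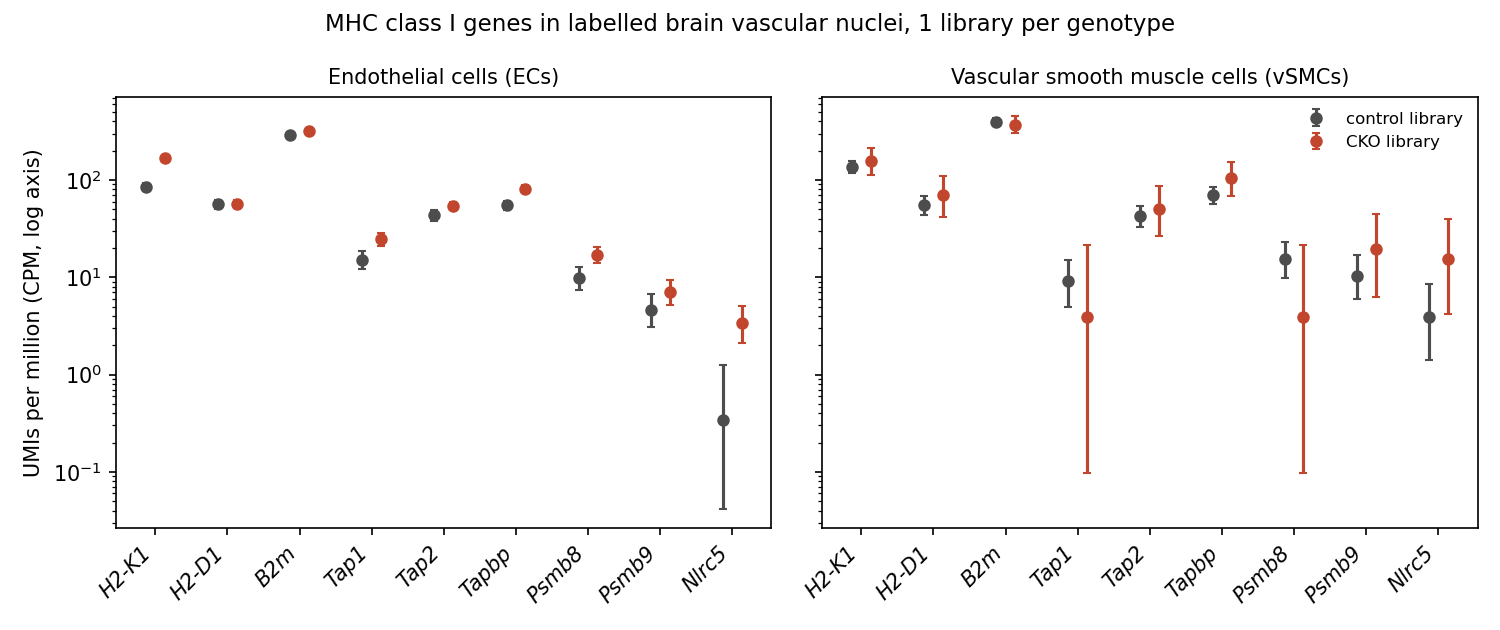
CPM of the class I presentation genes in brain ECs and vascular smooth muscle cells (vSMCs) in the control and the CKO library. Bars are 95% Poisson intervals.

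Most neurons and oligodendrocyte precursors hold few of these transcripts. Over 11 such types, all but Glut_20, with 31501121 UMIs in the control against 19905867 in the CKO library, H2-K1 has 3 and 2 UMIs and B2m 1 and 1. Psmb8 and Psmb9 have 0 in both. H2-D1 has 19 and 14 UMIs, of which 13 and 14 lie in Glut_21, at 11.4 and 16.9 CPM, as do 2 and 2 of H2-K1 and all of B2m. Glut_20, taken apart after its levels were seen, has 23 and 12 UMIs of B2m, 15 and 4 of H2-D1, 11 and 0 of Tapbp and 2 and 1 of H2-K1. Nlrc5 differs from the rest, with 27 UMIs in the control over the 11 types, 15 of them in Glut_1, and 0 in the CKO library. Its highest level under any brain label is in control microglia, at 100 CPM from 8 UMIs among 79925.

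The share of all member UMIs that falls in ECs is 61.2% in the control (59.9 to 62.5) and 91.1% in the CKO library (90.3 to 91.8). Those ECs hold 11.7% and 22.1% of all UMIs. The vSMC share is 21.6% (20.5 to 22.8) and 3.73%, glia take 6.49% and 2.39%, and CP_6 6.34% and 1.57%. Over Tap1, Tap2, Tapbp, Psmb8 and Psmb9 alone, vSMCs take 16.0% and 3.21%, glia 9.68% and 5.53%, and CP_6 16.4% and 4.44%. Shares follow how many nuclei of each type were caught as well as levels: vSMCs number 449 nuclei in the control against 103 in the CKO library.

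Outside ECs, 3 other brain types have members with enough UMIs to count. In vSMCs, whose smooth muscle markers sum to 5082 CPM in the control against 4591 in the CKO library (5 of 5, Acta2 the highest), 0 of 5 members are called higher, against 13.2% of genes, and 0 lower, against 14.2%. H2-K1 is at 136 and 159 CPM there (ratio 1.17, 0.815 to 1.64), H2-D1 at 55.0 and 69.7 (1.27, 0.717 to 2.13), and B2m at 400 and 372 (0.930, 0.742 to 1.16). Each of these intervals includes 1. Tap2 in vSMCs is at 42.7 and 50.3 CPM and Tapbp at 69.8 and 105 CPM, ratios of 1.18 and 1.5 (0.943 to 2.30), the latter just under the line before rounding. Endothelial markers in vSMCs sum to 5664 CPM in the control against 5508 in the CKO library and pericyte markers to 6409 against 6220, so this label too holds transcripts of other vascular cells. Fibroblast markers in vSMCs are at 1521 CPM in the control against 3058 in the CKO library, and their part in these values was not tested.

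In the glia label 1 of 3 members is called higher, against 19.4% of genes. That member is Tapbp, with 99 and 66 UMIs, 57.1 and 132 CPM, a ratio of 2.31 (1.67 to 3.19). In nuclei of this label with cycling marker UMIs, a subset chosen after seeing the data, that ratio is 1.11 (0.40 to 2.72), from 21 and 7 UMIs. The glia label is the authors' own and was not read against marker genes here, so which cells it holds was not tested. H2-K1 in glia is at 30.0 and 28 CPM, and B2m at 76.2 and 60.1 CPM (0.789, 0.512 to 1.18). CP_6 goes the other way: 2 of its 3 members are called lower, against 7.78% of genes. H2-K1 has 58 and 13 UMIs in CP_6, 17.6 and 9.51 CPM, a ratio of 0.541 (0.272 to 1.00). Tapbp has 107 and 26 UMIs, 32.4 and 19 CPM, a ratio of 0.587 (0.367 to 0.908). Tap2 in CP_6 is at 27.9 and 27.1 CPM, a ratio of 0.971. Whether ratios differ between ECs and these types was not tested.

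Across 35 sums of a brain cell type in a library, each of at least 200000 UMIs, 9918 genes were ranked by Pearson correlation with the mean profile of H2-K1, H2-D1 and B2m. The 5 most alike are Pecam1 (r 0.98), Ly6e (0.98), Selenop (0.98), Kctd10 (0.97) and Esam (0.97). In ECs none of these differs by more than 1.5-fold: Pecam1 is at 585 and 496 CPM, Ly6e at 386 and 375, Selenop at 851 and 1037, Kctd10 at 157 and 115 and Esam at 764 and 654. Of the members, Tapbp has an r of 0.93, Psmb9 0.89, Tap1 0.87, Psmb8 0.85 and Tap2 0.84, and Nlrc5 is the least alike at 0.42. The sums share libraries, so these are descriptions.

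In the retina, libraries are replicates and the 11 labels plus all nuclei, with and without the immune label, were each fitted across all genes with edgeR, batch and kit as terms. Since the only control lies in batch 1, the fitted difference comes from the control against CKO replicates 1, 2 and 3, and the spread of the lone control is taken to be that of the CKO libraries. The exact permutation test of a single gene, two-sided over libraries, cannot go below 0.0833 with 12 libraries, 0.0909 with 11 or 0.25 within batch 1. Of 85 member tests in 13 fits, 0 pass an adjusted p of 0.05 by edgeR. Unadjusted, 18 are under 0.05, as are 4.42% of the tests of all genes. DESeq2 calls 0 members in any of them.

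Over all retinal nuclei, 0 of 9 members pass by edgeR, against 0.00415% of genes; 3 are under 0.05 unadjusted by edgeR and 0 by DESeq2. All 9 fitted log2 fold changes are positive, with a median of 1.30 beside -0.00 for all genes. Without CKO replicate 1 the median is 0.85 and 8 of 9 are positive. The control lies below all 11 CKO libraries for 4 of 9 members, H2-K1, Tap1, Psmb8 and Nlrc5, against 2.96% of genes. Without replicate 4 it lies below the other 10 for 5 of 9, with Tap2 added, against 6.59% of genes. The immune share of nuclei is higher in each CKO library than in the control, as given above. Pan-immune markers over all nuclei are at 20.9 CPM in the control (8 of 8, Dock2 the highest) against 27.3 to 3682, median 33.1, and macrophage markers at 3.13 (6 of 7, Mrc1 the highest) against 4.24 to 1128, median 9.43, each above the control in 11 of 11; their part in the member levels was not tested. Without immune nuclei, 0 of 9 members pass by edgeR, against 0.0209% of genes (4 unadjusted, 0 by DESeq2), and the median is 1.09. There the control lies below all 11 for 0 members, against 1.63% of genes, and without replicate 4 below the other 10 for 3, Tap1, Tap2 and Psmb8, against 5.83%. Replicate 4 keeps 39 nuclei with 47419 UMIs there and no member UMI, so the count over all 11 could not be above 0.

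H2-K1 over all retinal nuclei is at 1.87 CPM in the control, from 58 UMIs, and in the CKO libraries at 1.91 at the lowest (replicate 7), 5.38 at the median and 111 at the highest (replicate 4). Replicate 7 nearly meets the control and the other CKO libraries lie above it. Without replicate 4 the highest is 8.73, and in batch 1 the CKO levels are 4.28, 4.6 and 6.38. The permutation p is 0.167 with all libraries, 0.182 without replicate 4 and 0.25, the smallest possible, within batch 1. edgeR gives a log2 fold change of 1.43 (SE 0.68, p 0.0545, adjusted p 1) over all nuclei and 1.29 (SE 0.41, p 0.00673, adjusted p 1) without the immune label. H2-D1 is at 1.39 CPM in the control against 0 to 4.22, median 2.41, above it in 8 of 11 libraries, and its fitted log2 fold change turns from 0.26 to -0.23 without CKO replicate 1. B2m is at 1.36 CPM against 0 (replicate 7) to 33.2 (replicate 4), median 2.59, above the control in 10 of 11.

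The loading and processing genes over all retinal nuclei are sparse. Tap1 is at 0.419 CPM in the control, from 13 UMIs, and at 0.547 to 22.1 in the CKO libraries, median 0.832, with a highest of 1.62 without replicate 4. Each CKO library lies above the control. Psmb8 has 4 control UMIs, 0.129 CPM, against 0.260 to 11.1, median 0.509, and a highest of 0.789 without replicate 4. Tap2 at 2.16 CPM is exceeded in 10 of 11 libraries (median 2.79), Tapbp at 5.36 in 8 (median 6.40) and Psmb9 at 0.194 in 9 (median 0.447). Nlrc5 is at 1.16 CPM from 36 UMIs against 1.23 to 11.1, median 2.04, with a highest of 4.57 without replicate 4. The edgeR p is 0.0212 for Psmb9, 0.0291 for Psmb8 and 0.0482 for Nlrc5, and each adjusted p is 1.

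Müller glia, the radial glia of the retina, hold the most member UMIs of the glial labels. They number 402 nuclei with 1511111 UMIs in the control against 2668 nuclei in the CKO libraries, and replicate 4 (705 UMIs) is left out. Their own markers sum to 3432 CPM in the control against 2634 to 3707 in the CKO libraries (7 of 7 detected, Slc1a3 the highest). Rod markers in the same nuclei sum to 4431 against 3013 to 5203 (6 of 6, Sag the highest). Endothelial markers sum to 1290 against 1088 to 1747 (6 of 11, Flt1 the highest). Horizontal cell markers are at 2.65 against 1.99 to 18.8, median 10.1, above the control in 9 of 10. This label thus holds transcripts of other cells, and their part in the member levels was not tested. In edgeR 0 of 9 members pass, against 0.0592% of genes, with 3 under 0.05 unadjusted by edgeR and 3 by DESeq2, where 8.89% of all genes are under 0.05 by edgeR. Of the fitted log2 fold changes 8 of 9 are positive, with a median of 2.35 beside 0.00 for all genes. The members' median is 2.12 with H2-D1, which has no control UMI, set at its CKO median over 3 control counts. Without CKO replicate 1 the median is 1.48 and 1 member of 8 is under 0.05 unadjusted. H2-K1 and Tap1, 2 of 9, have the control below every CKO library, against 8.35% of genes.

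**Figure D3:**
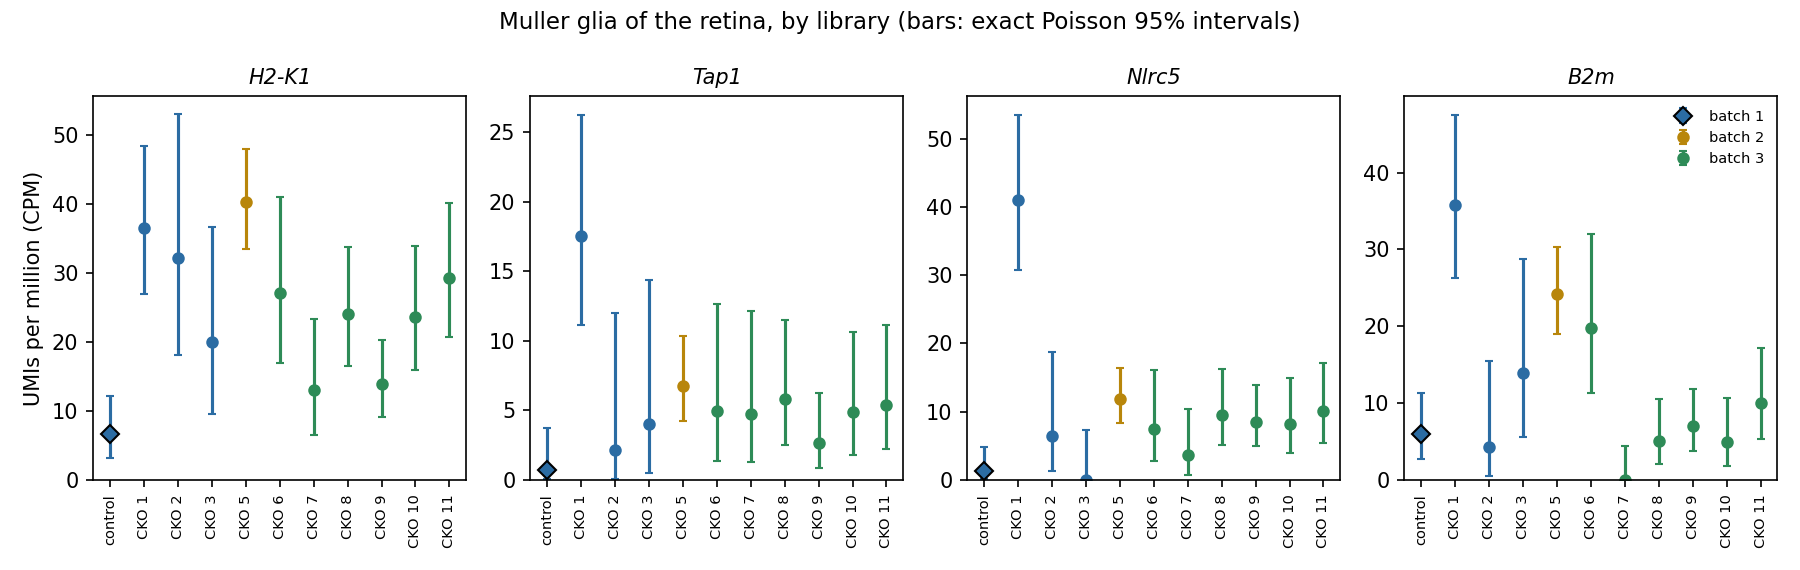
CPM of a selection of the class I presentation genes, H2-K1, Tap1, Nlrc5 and B2m, in Müller glia of each retina library except CKO replicate 4.

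H2-K1 in Müller glia is at 6.62 CPM in the control, from 10 UMIs (3.17 to 12.2), and at 13.1 (replicate 7), 25.6 (median) and 40.2 CPM (replicate 5) in the CKO libraries. The groups do not overlap, and the batch 1 CKO levels are 19.9, 32.2 and 36.5 CPM. The permutation p is 0.0909 over 11 libraries and 0.25 within batch 1, each the smallest possible. Without replicate 7 the lowest is 13.9 CPM, and 9 of 9 lie above the control. The pooled ratio, from UMIs summed over the CKO libraries, is 4.21 (2.26 to 8.85); the interval of this and every pooled ratio below covers counting error only and not the spread between libraries. edgeR gives a log2 fold change of 2.12 (SE 0.57, p 0.0016, adjusted p 0.202). Without the filter on low counts, H2-K1 (adjusted p 0.00904) and Nlrc5 (0.00257) pass, among 273 genes of 24404. No other setting run passes a member in Müller glia, and over all of them the adjusted p runs from 0.00904 to 0.848 for H2-K1 and from 0.00257 to 0.900 for Nlrc5.

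For H2-D1 in Müller glia, no UMI was found in the control, where 3 counts would be 1.99 CPM. The CKO libraries run from 0 to 8.61 CPM, above 0 in 8 of 10, with a median of 4.74. That median is 2.39-fold over the 3-count level, and the lower limit of the pooled ratio is 1.955. B2m is at 5.96 CPM from 9 UMIs against 0 (replicate 7) to 35.7 (replicate 1), median 8.48, with the control inside the CKO range. Tap1 has 1 UMI in the control, 0.662 CPM, against 2.15 to 17.5 CPM, median 4.91, a pooled ratio of 9.55 (1.67 to 382). All 10 CKO libraries are above it, with replicate 1 the highest, and the permutation p is 0.182. The fitted log2 fold change of Tap1 is 3.65 (SE 1.25, p 0.00872, adjusted p 0.371) and 2.00 without CKO replicate 1 (p 0.183). Tap2 at 17.2 CPM from 26 UMIs lies within its CKO range of 8.31 to 22, above 5 and below 5 libraries. Tapbp at 5.96 CPM is exceeded in 9 of 10, from 1.19 to 22.1.

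Psmb8 and Psmb9 have 1 UMI each in control Müller glia, 0.662 CPM, and are above that in 9 of 10 CKO libraries, with medians of 2.18 and 1.58 CPM. Nlrc5 has 2 UMIs in the control, 1.32 CPM, against 0 (replicate 3) to 41.1 CPM (replicate 1), median 8.34, a pooled ratio of 9.14 (2.49 to 76.1). Replicate 1 stands far above and replicate 3 below the control; the permutation p is 0.273. edgeR gives Nlrc5 a log2 fold change of 3.79 (SE 1.27, p 0.00757, adjusted p 0.367), and 1.10 (p 0.426) without CKO replicate 1. H2-K1 without that replicate is at 1.87 (p 0.0101). Markers of immune cells were summed in the same Müller nuclei. Pan-immune markers are at 7.94 CPM in the control against 5.10 to 19.9 in the CKO libraries (5 of 8 detected in the control), and macrophage markers at 3.31 against 4.63 to 12.2, above the control in 10 of 10 (3 of 7). The part of the macrophage markers in the member levels was not tested.

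Retinal immune nuclei number 29 in the control, with 114469 UMIs, and 691 in the CKO libraries. In edgeR 0 of 9 members pass, against 0% of genes, with 3 under 0.05 unadjusted by edgeR and 1 by DESeq2. Of the fitted log2 fold changes 8 of 9 are positive, and 7 of 9 without CKO replicate 1. The count under 0.05 unadjusted by edgeR also falls without that replicate. At this depth 3 counts in the control are 26.2 CPM. H2-K1 is at 52.4 CPM from 6 UMIs against 16.0 (replicate 3) to 232 (replicate 4), median 84.8, above the control in 9 of 11 (permutation p 0.5). B2m is at 61.2 CPM against 0 (replicate 7) to 154, median 61.3. Both control values lie inside the CKO range.

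Nlrc5 has no UMI in control immune nuclei and is at 9.43 to 93.9 CPM in the CKO libraries, median 23.4, which is under the 3-count level, so no fold is given. It is the 1 of 9 members with the control below every CKO library, against 5.7% of genes; without replicate 4 there are 3, with H2-D1 and Tapbp, against 11.7%. H2-D1, Tap1, Tapbp, Psmb8 and Psmb9 also have 0 UMIs in control immune nuclei, and each of their CKO medians is under 26.2 CPM. Macrophage markers are at 26.2 CPM in the control (2 of 7) against 38.9 to 1487 in the CKO libraries, median 374, and pan-immune markers at 1808 (8 of 8) against 1460 to 7669. Dendritic cell markers have no UMI in the control (0 of 5) against 46.7 to 176 CPM, median 76.1, above it in 11 of 11. T and NK cell markers are at 17.5 CPM in the control against 7.78 to 163, median 71.4, above it in 7 of 11. B cell markers have no UMI in the control against 0 to 55.8 CPM, above it in 8 of 11. A further immune list, whose sums are not given here, goes the other way and is above the control in 1 of 11. The part of these markers in the member levels was not tested. Rod markers in immune nuclei are at 5722 (6 of 6) against 0 to 7121. In subsets chosen after seeing the data, H2-K1 is at 113 CPM (95.3 to 132) in the 322 CKO immune nuclei with a macrophage marker UMI and at 151 CPM (114 to 196) in the 58 with a T or NK cell marker UMI, and at 103 CPM (91.4 to 117) in all 691. Only 2 control nuclei carry a macrophage marker UMI, with no H2-K1 UMI among 7984, so the control allows no comparison in that subset. A split by other immune markers, whose values are not given here, sets the H2-K1 levels of the CKO nuclei further apart. All 29 control nuclei fall on its side with the lower CKO level.

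Neurons of the retina have few member UMIs, and in edgeR no member passes in any label. For horizontal cells it is 0 of 5, against 0% of genes (1 unadjusted by edgeR, 0 by DESeq2). H2-K1 there has 3 control UMIs, 4.01 CPM, against 11.2 to 23.3, median 14.4, a pooled ratio of 4.32 (1.44 to 21.3). All 10 CKO libraries lie above the control (permutation p 0.0909, the smallest possible), 1 of 5 members, against 9.47% of genes. Batch 1 levels are 12.9, 14 and 21.8 CPM, and edgeR gives 1.78 (SE 0.73, p 0.0244, adjusted p 0.792). Pan-immune markers in horizontal nuclei are at 8.01 CPM in the control against 0 to 42.6, median 27.4, in the CKO libraries, pericyte markers at 12 against 19.3 to 81.5, median 48.1, above the control in 10 of 10, and macrophage markers at 1.33 against 0 to 49.8, above it in 9 of 10. Müller glia markers in these nuclei are at 268 against 96.7 to 519, above it in 8 of 10, astrocyte markers at 156 against 108 to 405, above it in 9 of 10, and horizontal cell markers at 1299 against 609 to 1984, above it in 1 of 10. The part of these markers in the H2-K1 levels was not tested.

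In the bipolar cells no member passes either. In rod bipolar cells it is 0 of 5 members, against 0.0413% of genes (1 unadjusted by edgeR, 1 by DESeq2). Tapbp there has 1 control UMI, 0.478 CPM, against 2.49 to 12 CPM, median 6.13, a pooled ratio of 13.3 (2.33 to 531). The control is below every CKO library for 1 of 5 members, against 6.36% of genes; the permutation p is 0.273, and edgeR gives 3.46 (SE 1.18, p 0.00822, adjusted p 0.683). In cone bipolar cells it is 0 of 7, against 0% of genes (1 unadjusted by edgeR, 1 by DESeq2). Tapbp there has 38 control UMIs, 7.18 CPM, against 0.450 to 6.48 CPM, median 5.04, a pooled ratio of 0.607 (0.425 to 0.885). The control is above every CKO library for 1 of 7, against 4.97% of genes, with a permutation p of 0.182 and an edgeR log2 fold change of -0.80 (p 0.209). Whether Tapbp differs between the bipolar labels was not tested. H2-K1 in cone bipolar cells has 1 control UMI, 0.189 CPM, against 0 to 8.36, median 2.46, above it in 9 of 10.

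In GABAergic amacrine cells 0 of 7 members pass, against 0.0108% of genes (1 unadjusted by edgeR, 0 by DESeq2). Tapbp is at 1.26 CPM from 7 UMIs against 0 to 8.11, median 4.50, above the control in 10 of 11, a pooled ratio of 3.83 (1.82 to 9.67). Glycinergic amacrine cells have 0 of 6, against 0.0341% of genes (1 unadjusted by edgeR, 0 by DESeq2). Tap2 has 1 control UMI there, 0.283 CPM, against 0.945 to 2.63, median 1.54; it is the 1 of 6 members with the control below every CKO library, against 7.71% of genes (permutation p 0.182). In rods 0 of 5 pass, against 0.0576% of genes (0 unadjusted by either tool), and Tapbp at 9.07 CPM from 78 UMIs lies within 5.84 to 10.8. H2-D1 in rods has 3 control UMIs, 0.349 CPM, against 0 to 4.16, median 1.32, above it in 8 of 10, a pooled ratio of 5.47 (1.82 to 26.9). Cones have 0 of 4, against 0.0471%, ganglion cells 0 of 6, against 0%, and astrocytes 0 of 4, against 0%, each with 0 unadjusted by either tool. H2-K1 in astrocytes has 1 control UMI, 32.0 CPM, against 0 to 158, median 63.6, and pericyte markers there are at 95.9 (1 of 8) against 150 to 808, above the control in 10 of 10. Over the 11 retinal labels together, the control lies below every CKO library in 6 of 67 member tests, 8.96%, and in 5.38% of the tests of all genes, and above every CKO library in 1 member test and in 5.18% of the tests of all genes. CKO replicate 4 has no member UMI in GABAergic amacrine or ganglion cells, so no member there could have the control below every CKO library.

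By share of a library's member UMIs, without replicate 4, Müller glia take 13.6% in the control (10.5 to 17.1) and 13.7% to 25.2% in the CKO libraries, median 19%. The immune label takes 3.45% against 6.31% to 22.3%, median 11.1%, and holds 0.369% of all UMIs against 0.645% to 1.45%. As in the brain, shares follow how many nuclei were caught as well as levels. Each CKO library lies above the control for both labels, as for astrocytes and horizontal cells, but Müller glia do so in 9 of 10 without B2m and in 7 of 10 over the 5 others (Tap1, Tap2, Tapbp, Psmb8 and Psmb9), and astrocytes in 9 of 10 over those 5. Rods take 21.6% against 7.29% to 19.8%, median 12.9%, cone bipolar cells 15.6% against 6.76% to 15.4%, and ganglion cells 9.66% against 3.49% to 9.50%, each CKO library below the control. That holds for rods and cone bipolar cells without B2m and over the 5 others, but for ganglion cells 1 of 10 lies above without B2m and 4 of 10 over the 5 others (6.64% in the control against 3.39% to 11.5%, median 6.45%).

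None of the 43 other pathway genes passes in any retina fit by edgeR. Over all nuclei the positive counts and medians of the fitted log2 fold change are 7 of 8 (0.87) for other class I heavy chains, 3 of 4 (0.49) for immunoproteasome and activator subunits, 2 of 3 (0.07) for constitutive subunits, and 4 of 5 (0.02) for loading factors. Upstream factors give 4 of 7 (0.00) for the enhanceosome, 12 of 13 (0.12) for interferon signaling and 2 of 3 (0.02) for NF-kB. In Müller glia 1 of 2 tested heavy chains is positive, and the remaining lists give, in the same order, 3 of 4 (0.93), 1 of 3 (-0.57), 4 of 5 (0.48), 4 of 7 (0.06), 10 of 13 (0.25) and 3 of 3 (0.34).

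By position on GRCm39, 7 members lie on chromosome 17, in the mouse MHC. Psmb9, Tap1, Psmb8 and Tap2 fill 34.9 kb from chr17:34400960-34406738 (Psmb9) to chr17:34422501-34435829 (Tap2), with 490 bases between Tap1 and Psmb8 and 2072 between Psmb8 and Tap2. Tapbp (chr17:34134873-34148267) and H2-K1 (chr17:34214987-34219321) lie to the left and H2-D1 (chr17:35481691-35486475) to the right. B2m (chr2:121977957-121983594) and Nlrc5 (chr8:95160984-95253900) are elsewhere.

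RefSeq promoter windows on GRCm38.p6, from 250 bases before to 50 after the start, exist for 7 of 9 members; Nlrc5 and Tap2 have none. Letters were searched on both strands. GGGATTCCC, an NF-kB palindrome, occurs in H2-K1 and H2-D1 and in 0.353% of 32851 promoters. GAAANNGAAA, an interferon-stimulated response element, occurs in B2m (3.44% of promoters), and TTCNNNGAA, a gamma-activated sequence, in Psmb8 (8.30%). TGACG, the core of the X2 box, occurs in 5 members, B2m, H2-D1, H2-K1, Psmb9 and Tap1 (20.8%), and CCAAT, the core of the Y box, in those and Tapbp (37.4%). The Psmb9 and Tap1 windows overlap, so they share their matches. From the palindrome to TGACG is 69 positions in both heavy chain genes, and from TGACG to ATTGG, the Y core on the other strand, 25 in H2-K1, H2-D1 and B2m. The windows of these 3 are shown because their chains form the class I molecule and share that spacing: H2-K1 at chr17:34000284-34000583 (minus strand), H2-D1 at chr17:35262844-35263143 (plus strand) and B2m at chr2:122147437-122147736 (plus strand), with the matches to the letters above in capitals.
H2-K1: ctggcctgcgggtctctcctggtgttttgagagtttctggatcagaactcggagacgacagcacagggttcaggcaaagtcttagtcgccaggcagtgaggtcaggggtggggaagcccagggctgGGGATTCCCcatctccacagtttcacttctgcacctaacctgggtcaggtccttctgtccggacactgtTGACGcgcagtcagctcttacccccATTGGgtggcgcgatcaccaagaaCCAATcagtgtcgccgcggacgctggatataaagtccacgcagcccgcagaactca
H2-D1: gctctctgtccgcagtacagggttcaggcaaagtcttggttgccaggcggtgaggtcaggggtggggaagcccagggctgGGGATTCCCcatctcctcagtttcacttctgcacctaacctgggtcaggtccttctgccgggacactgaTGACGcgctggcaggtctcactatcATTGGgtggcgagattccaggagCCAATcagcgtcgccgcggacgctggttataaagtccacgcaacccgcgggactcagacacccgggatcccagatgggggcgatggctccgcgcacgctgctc
B2m: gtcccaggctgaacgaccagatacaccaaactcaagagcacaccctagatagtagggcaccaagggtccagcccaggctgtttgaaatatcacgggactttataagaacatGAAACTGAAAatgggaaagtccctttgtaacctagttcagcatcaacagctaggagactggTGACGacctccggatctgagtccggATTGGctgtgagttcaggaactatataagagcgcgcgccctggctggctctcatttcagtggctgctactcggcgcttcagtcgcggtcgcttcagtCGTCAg

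H2-K1 and H2-D1 carry the same matches in the same order, and their EC ratios in the brain are 1.97 and 1.00. A match describes letters only and says nothing about which factor is bound.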

How the data were processed

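Unnormalized UMI counts were deposited. The authors aligned reads with PIPseeker to GRCm39, took out background with CellBender and doublets with SOLO, and discarded by hand mixed nuclei and, in CKO retina replicates 4 and 5, clusters of multiple nuclei. The submitters' notes also name Seurat and mm10. Cell type, batch and kit are the authors' labels. Members and lists were chosen with earlier results of these data known.

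UMIs were summed per cell type and library and divided by the total (CPM). Brain ratios carry exact conditional binomial intervals, levels exact Poisson intervals and shares exact binomial intervals, at 95%, and no test. Retina sums were tested over libraries with edgeR 4.0.16 (quasi-likelihood, TMM, at least 20 UMIs per gene, batch and kit as terms, Benjamini-Hochberg over all genes) in R 4.3.3, and again with DESeq2 1.42.0. A library with under 5000 UMIs in a cell type was left out, which applies to CKO replicate 4 in 8 labels. SE is the size of the log2 fold change over the root of F. Single genes had two-sided exact permutation tests of mean CPM. The edgeR fit was run on counts simulated for Müller glia, without a batch or kit effect. The genes changed there had more UMIs than most members have, so recovery of changes in such sparse genes was not tested. Python 3.11.15, numpy 2.4.6, scipy 1.17.1 and pandas 2.3.3 did the rest.

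Named genes are the 9 members, by rule where a cell type has at least 50 UMIs of the gene over the libraries and elsewhere as description only, other pathway genes past the call rule in brain ECs or a retina fit, and the 5 genes most like the mean of H2-K1, H2-D1 and B2m by Pearson correlation. Alternatives changed scaling, filters, fold, covariates, nuclei and libraries. Those on nuclei with cycling or without pericyte marker UMIs, on batch 1 by permutation, and without replicates 4 or 7 were chosen after seeing the data. The macrophage and T or NK cell splits of immune nuclei were too. Splits by other immune markers were run and are not reported here.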

Additional observations from a re-analysis of the deposited data

Results flagged for a closer look

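Tapbp is listed because its control level lies on opposite sides of the CKO libraries in the bipolar cells of the retina: in rod bipolar cells each CKO library lies above the control (0.478 CPM), with a CKO median of 6.13 CPM, and in cone bipolar cells each CKO library lies below the control (7.18 CPM), with a CKO median of 5.04 CPM. Neither passes a test (adjusted p 0.683 in rod bipolar cells, p 0.209 in cone bipolar cells), and the control lies below every CKO library for 6.36% of all genes in the former and above every one for 4.97% in the latter. The difference was not tested. The rod bipolar control value rests on 1 UMI.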

How the results depend on the processing

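In brain ECs 4 members are called higher, and the count is 5 at 20 UMIs or more (with Nlrc5), 5 by mean CPM over nuclei (with Tapbp), 4 in nuclei with cycling marker UMIs (with Tapbp in place of Psmb9), 3 with TMM factors, 2 at 200 UMIs or more, 0 at 2-fold, 2 in nuclei with at least 1000 UMIs and 2 in nuclei without cycling marker UMIs, where Psmb9 at 1.95 has too few UMIs to count. In vSMCs 0 become 1 higher at 20 UMIs or more, 1 in nuclei with at least 1000 UMIs and 1 in nuclei with cycling marker UMIs, and 1 lower at 20 UMIs or more. In glia 0 lower become 2 by mean CPM over nuclei and 1, B2m, in a split whose values are not given. At 200 UMIs or more no member has enough UMIs to count in glia or CP_6, so the calls there end. In nuclei of the glia label with cycling marker UMIs no member has enough either. In CP_6 2 lower become 0 at 2-fold, 1 in nuclei with at least 1000 UMIs, 1 without cycling marker UMIs, where H2-K1 at 0.468 has too few UMIs to count, and 0 in nuclei with cycling marker UMIs, and 3 at 20 UMIs or more (with Tap1). In nuclei with cycling marker UMIs the Psmb9 ratio in ECs reverses to 0.883, from 11 and 22 UMIs. Of 120 alternative ratios of single members in the brain, 100 stay within the interval given, 19 leave it, and the reversed Psmb9 ratio lies outside its interval too. Among the 19, mean CPM over nuclei gives 0.205 for H2-K1 and 0.282 for Tapbp in CP_6, 0.414 for B2m in glia, 0.704 for B2m in vSMCs, and 2.13 for Tap1, 1.05 for Tap2 and 1.73 for Tapbp in ECs. Nuclei without pericyte marker UMIs give 0.245 for H2-K1 in CP_6, 0.0942 for B2m in glia (1 CKO UMI) and 1.52 for H2-K1 in ECs. Nuclei with cycling marker UMIs give 2.30 for H2-K1 and 1.76 for Tapbp in ECs and 1.11 for Tapbp in glia, and those without give 0.590 for Tap2 in vSMCs, not called at 1.18. TMM factors give 1.04 for B2m in ECs. The rest of the 19 come from the splits that are not reported. EC nuclei without pericyte marker UMIs hold too few UMIs to count any member. In them, and not among the 120 ratios, Tap2 is at 0.171 (17 and 1 UMIs) and H2-D1 at 0.581 (15 and 3). Psmb8 has 2 and 0 UMIs there and Tap1 0 and 4. B2m is at 1.45 (10 and 5 UMIs, 44.4 and 64.4 CPM) and Tapbp at 2.90 (4 and 4 UMIs).

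The EC share of member UMIs in the control, 61.2%, is 55.5% without B2m and 52.1% over the 5 others (Tap1, Tap2, Tapbp, Psmb8 and Psmb9), and the vSMC share 18.7% and 16.0%. In the CKO library the EC share is 88.9% and 86.0%, and the vSMC share over the 5 others 3.21%. The CP_6 share is 11.6% and 16.4% in the control and 2.7% and 4.44% in the CKO library. For glia it is 7.49% and 9.68% in the control and 3.21% and 5.53% in the CKO library. Over the 5 others CP_6 lies above vSMCs in the control, with overlapping intervals. In the CKO library both glia and CP_6 lie above vSMCs there.

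In Müller glia of the retina the count of members called goes from 0 to 2 with no filter. The log2 fold change of H2-D1 over all nuclei reverses to -0.23 without CKO replicate 1, and leaving out each CKO replicate in turn gives -0.23 to 0.52. Of 325 alternatives for single members, 322 keep direction and side of the threshold. Müller glia H2-K1 runs from 1.87 to 2.32 on the log2 scale and Nlrc5 from 1.10 to 4.26. The causes were not tested. No paired analysis was possible because only CKO retinas have more than 1 replicate number. A control of 1 library, with 0 to 10 UMIs for 8 of 9 members in Müller glia, sets the depth limit.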
